A study of Mus musculus with 12 samples.

Results

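The genes described here encode sodium, calcium, chloride, TRP and related cation channels, with their auxiliary subunits, in neurons of the early mouse cerebral cortex. They were chosen by symbol from the deposited table of coding genes (the families Scn, Cacna, Cacnb, Cacng, Hcn, Trpc, Trpm, Trpv, Clcn, Ano, Ryr, Itpr, Piezo, Asic, Nalcn, Orai, Stim and P2rx), and 46 of its 4859 genes are described. Cells were dissociated from the cerebral cortex of embryos that carry the transgene Tg(Ebf2-EGFP)FB58Gsat, in which EGFP follows the gene of the transcription factor Ebf2, and were sorted by FACS into Ebf2-EGFP+ and Ebf2-EGFP- fractions, at the embryonic stages E11.5, then E13.5, then E15.5. Every group therefore came from transgenic tissue without further treatment, and each of the 6 groups has 2 libraries, made per the study's methods from pooled embryos. The reporter marks preplate neurons (subplate and Cajal-Retzius neurons) at E11.5 and becomes restricted towards Cajal-Retzius neurons later. The Ebf2-EGFP- cells are what remains of the cortex. The study describes them as mostly progenitors at E11.5, with cortical plate neurons also present at E13.5 and E15.5. Both sides of the comparison thus change in make-up over the stages.

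Voltage-gated sodium channels carry the rising phase of the action potential and voltage-gated calcium channels couple depolarization to calcium entry, transmitter release and gene expression. A pore-forming α subunit of either kind works with auxiliary subunits that set its delivery to the membrane and its gating, and the γ family of calcium channel genes largely acts as auxiliary subunits of AMPA receptors. TRP, ASIC and P2X channels open to lipid, redox, proton and ATP signals, chloride channels set anion flow, and Cajal-Retzius neurons are known for early electrical activity in the marginal zone.

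The population differences changed in opposite directions for a pair of genes of the same kind of subunit, the α2δ subunits Cacna2d1 and Cacna2d3, and the change was largest of all for the TRP channel Trpm3, so the sequences before their start sites are shown. Each is the 250 bases before the start in RefSeq (GRCm38.p6), read 5′ to 3′ on the strand of the gene, and holds no annotated exon. Capitals mark CAGCTG, an E-box, where present. The windows lie at chr19:22138796-22139045, plus strand (Trpm3), chr5:15934441-15934690, plus strand (Cacna2d1) and chr14:29721865-29722114, minus strand (Cacna2d3).
Trpm3: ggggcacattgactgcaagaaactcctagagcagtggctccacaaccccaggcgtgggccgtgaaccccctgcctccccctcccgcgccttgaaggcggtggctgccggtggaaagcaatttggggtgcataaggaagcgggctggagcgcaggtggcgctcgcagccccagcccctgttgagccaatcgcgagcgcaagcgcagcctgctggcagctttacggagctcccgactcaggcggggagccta
Cacna2d1: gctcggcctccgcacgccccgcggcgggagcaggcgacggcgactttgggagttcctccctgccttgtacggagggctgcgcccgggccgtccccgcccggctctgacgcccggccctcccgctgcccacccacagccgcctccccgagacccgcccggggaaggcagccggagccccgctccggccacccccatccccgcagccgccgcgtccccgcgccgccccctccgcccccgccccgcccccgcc
Cacna2d3: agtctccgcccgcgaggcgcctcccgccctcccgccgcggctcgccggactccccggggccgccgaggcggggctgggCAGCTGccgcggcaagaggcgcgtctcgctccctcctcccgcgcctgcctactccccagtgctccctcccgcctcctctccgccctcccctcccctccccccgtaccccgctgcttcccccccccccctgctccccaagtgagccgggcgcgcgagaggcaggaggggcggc
The G and C content of the windows was 66.4% for Trpm3, 82.4% for Cacna2d1 and 80.0% for Cacna2d3, with 17, 36 and 30 CpG dinucleotides.

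RefSeq windows matched 33 of the channel genes, with 49 windows, and their median G and C content was 58.0% against 52.4% over all 32851 windows of that length. On both strands, the palindromic EBF core (TCCC and GGGA with 2 free bases between them) was in 0 of the 49 windows and in 0.779% of all windows. The E-box CAGCTG was in 12 windows (24.5%) against 13.001% of all, and the E-box CAGATG in 5 (10.2%) against 14.4%. The cAMP response element TGACGTCA was in 1 (2.04%, Clcn4) against 1.55%. These are matches of letters in a short window and not sites. The other genes were Scn3a, Scn3b, Cacna1a, Cacna1g, Cacna1h, Cacng4, Hcn3, Ano8, Itpr1, Ryr3, Asic4, P2rx2 and P2rx5.

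By GENCODE M21 on GRCm38 (the assembly of mm10), Trpm3 spans chr19:22139046-22995410, Cacna2d1 chr5:15934691-16374511, Cacna2d3 chr14:28904943-29721864, Scn3a chr2:65457118-65567627 and Scn2a1 chr2:65620771-65767447. The 45 channel genes with a position had a median span of 98.9 kb, against 32.3 kb over 4624 genes of the table, and 48.9% against 23.6% spanned 100 kb or more. Annotated exons on the opposite strand cover 24.6% of the exon bases of Piezo1 (Ctu2), 18.1% of Asic4 (Gm37264), 17.1% of Hcn3 (Pklr) and 15.99% of Cacnb4 (A430018G15Rik). Whether the counting used strand is not stated, so fragments of the overlapping genes cannot be told apart there.

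Levels of Cajal-Retzius and radial glia markers followed the labels of the sorted cells. All 7 Cajal-Retzius markers (Reln, Trp73, Calb2, Lhx1, Lhx5, Ebf2, Ebf3) passed as higher in the Ebf2-EGFP+ fraction throughout, with summed levels of 294 to 319, 178 to 231 and 524 to 1087 FPKM against 10.7 to 11.46, 6.56 to 7.06 and 13.8 to 18.1 FPKM in Ebf2-EGFP- cells. The 2 Ebf2-EGFP+ libraries of E15.5 thus differed by over 2 times in this sum. Cortical plate markers in them summed to 569 to 806 FPKM, beside the 543 to 621 FPKM of Ebf2-EGFP- cells. At E13.5 these sums were 749 to 753 and 363 to 460 FPKM. Of the 6 cortical plate markers, 5 were called higher in Ebf2-EGFP+ cells at E13.5 (32.1% of all genes). At E15.5, 4 were called higher and 1 lower (25.8% and 31.6% of all genes). All 8 radial glia markers were called lower at each stage. The deposited table lists only genes that the authors reported as differential between the populations, so counts of calls and adjusted p-values describe a selected list. The study's methods and results describe the selection differently. In sorted bulk samples, fewer cells of a type and less RNA per cell cannot be told apart.

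The channel genes were mostly higher in Ebf2-EGFP+ cells. At E11.5, 30 of 46 were called higher and 6 lower by limma on log2(FPKM + 1) at an adjusted p under 0.05, where 36.8% and 44.9% of all 4859 genes were. At E13.5 the counts were 30 higher and 3 lower, against 32.1% and 43.5% of all genes. At E15.5 they were 28 higher and 2 lower, against 25.8% and 31.6%. The median log2 difference of the channel genes was 0.94, 0.75 and 0.76 over the stages, and that of all genes -0.19, -0.19 and -0.11. With the replicate number as a block, 3 further genes passed at E11.5 (Cacna1c, Cacng3, Clcn5) and 3 at E13.5 (Scn3a, Ano8, and, on the lower side, Orai1). At E15.5 6 further genes passed (Cacnb1, Cacnb3, Clcn4-2, and, on the lower side, Cacng2, Itpr1 and Orai1), so the lower count at E15.5 became 5. Leaving out Ebf2-EGFP- E13.5 replicate 2 or Ebf2-EGFP+ E13.5 replicate 1 or 2 left 1 gene lower at E13.5.

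The 18 genes called higher at all 3 stages were Scn2a1, Scn3b, Cacna1a, Cacna1b, Cacna1d, Cacna1e, Cacna1h, Cacna2d1, Cacna2d3, Cacng4, Cacng8, Hcn3, Hcn4, Trpm2, Trpv2, Ryr3, Orai2 and Asic1, where 14.6% of all genes had this pattern. The count was 20 with an offset of 0.1 FPKM and 21 under median-of-ratios scaling. It was 17 without the trend and 15 in a fit of the compared groups alone. With a library left out it was 13 to 19, and 13 without Ebf2-EGFP+ E11.5 replicate 2 or Ebf2-EGFP- E15.5 replicate 1. Leaving out certain libraries ended calls at E11.5 for Cacna1a (log2 value 0.56 to 0.64), Cacna1d (0.29 to 0.51) and Cacng4 (0.32 to 0.42). It also ended those of Ryr3 at E13.5 (0.54 to 0.68) and E15.5 (0.50 to 0.61). As given below, calls of Trpm2 at E11.5 and of Cacna1b, Cacna2d1, Hcn3 and Asic1 at E15.5 were lost in this way as well. No channel gene was called lower at all 3 stages by limma (0 also at an unadjusted p under 0.05, and 1 with an offset of 0.1 FPKM), against 21.8% of all genes. The Ebf2-EGFP+ pair exceeded the Ebf2-EGFP- pair without overlap in each of 3 stages for 25 genes, where 23.3% of all genes did. The Ebf2-EGFP+ libraries of E13.5 lay below the other 4 of that population for 9 channel genes, a pattern of 13.1% of all genes, and the Ebf2-EGFP- libraries of E13.5 lay below the other 4 for 11, against 6.54%.

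**Figure D1:**
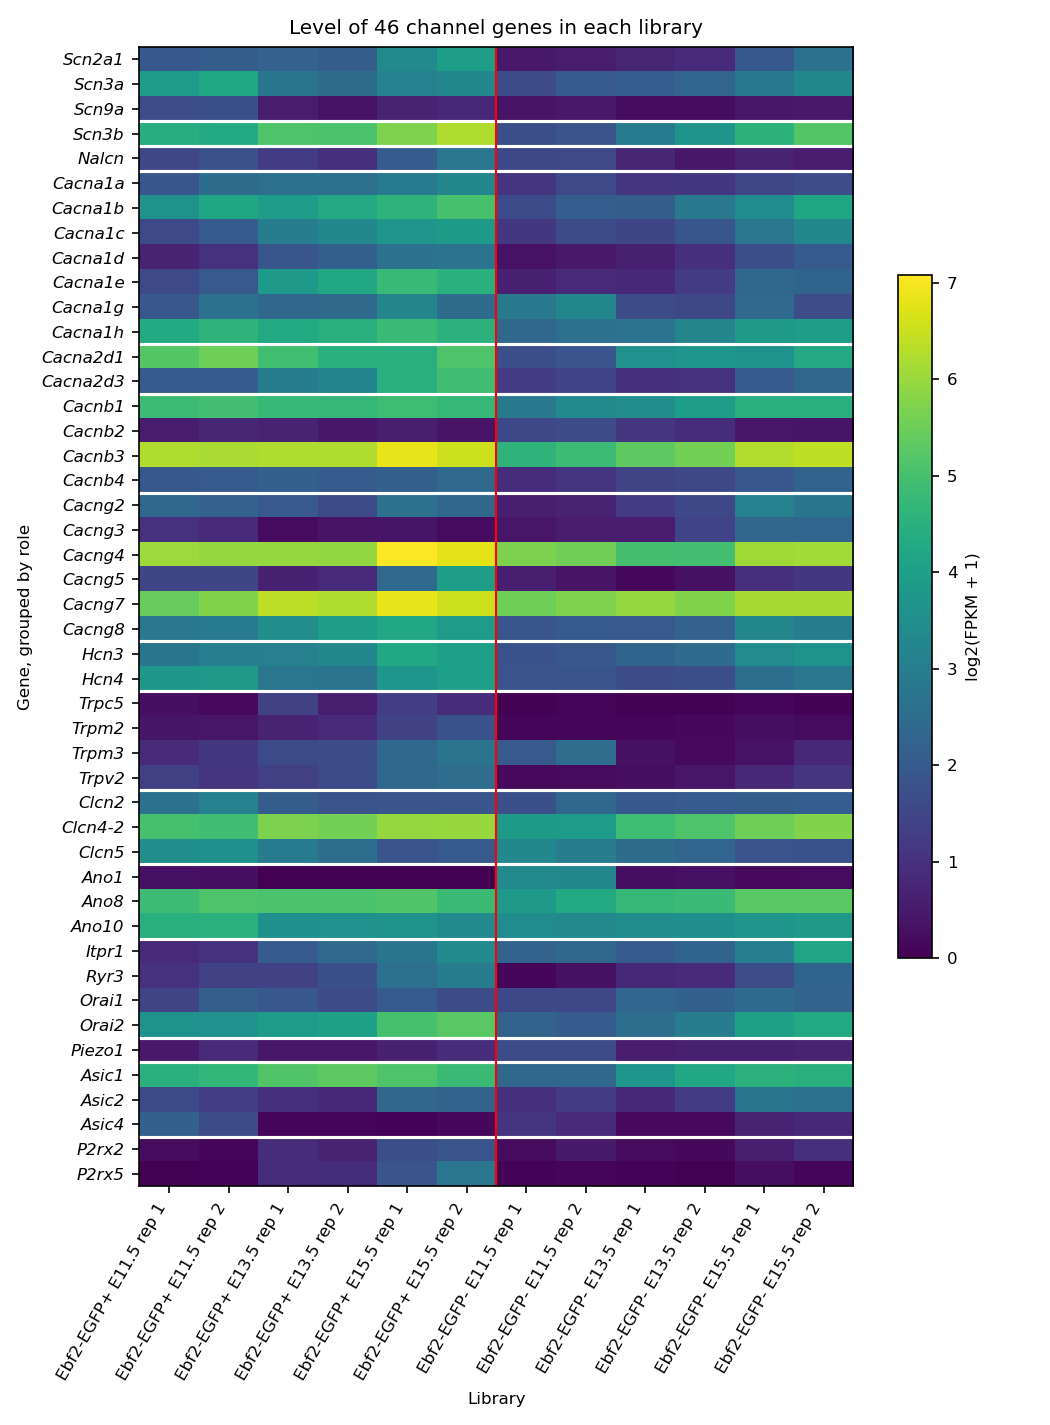
Each row is a channel gene grouped by role, each column a library, and the colour gives log2(FPKM + 1). Ebf2-EGFP+ libraries are left of the red line and Ebf2-EGFP- libraries right of it. Cacnb3, Cacng4 and Cacng7 are bright in every library, and Ano1 stands out in the Ebf2-EGFP- libraries of E11.5.

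Expression ranged widely among the channel genes. Cacnb3, Cacng4, Cacng7, Clcn4-2 and Ano8 were at 10 FPKM or more in every library. The genes with a mean under 1 FPKM over the 12 libraries were Scn9a, Cacnb2, Trpc5, Trpm2, Piezo1, Asic4, P2rx2 and P2rx5, and 38 had a mean of at least 1. Ano1 and P2rx5 were listed at 0 in 1 library each. Because 1 FPKM is added before the logarithm, log2 differences between groups understate those of low genes. With an offset of 0.1 FPKM, 71 of 202 called values moved by over 1.5-fold, all of them away from 0. The change of a population difference can also shrink with that offset: that of Cacna1e went from 1.29 to 0.86.

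**Figure D2:**
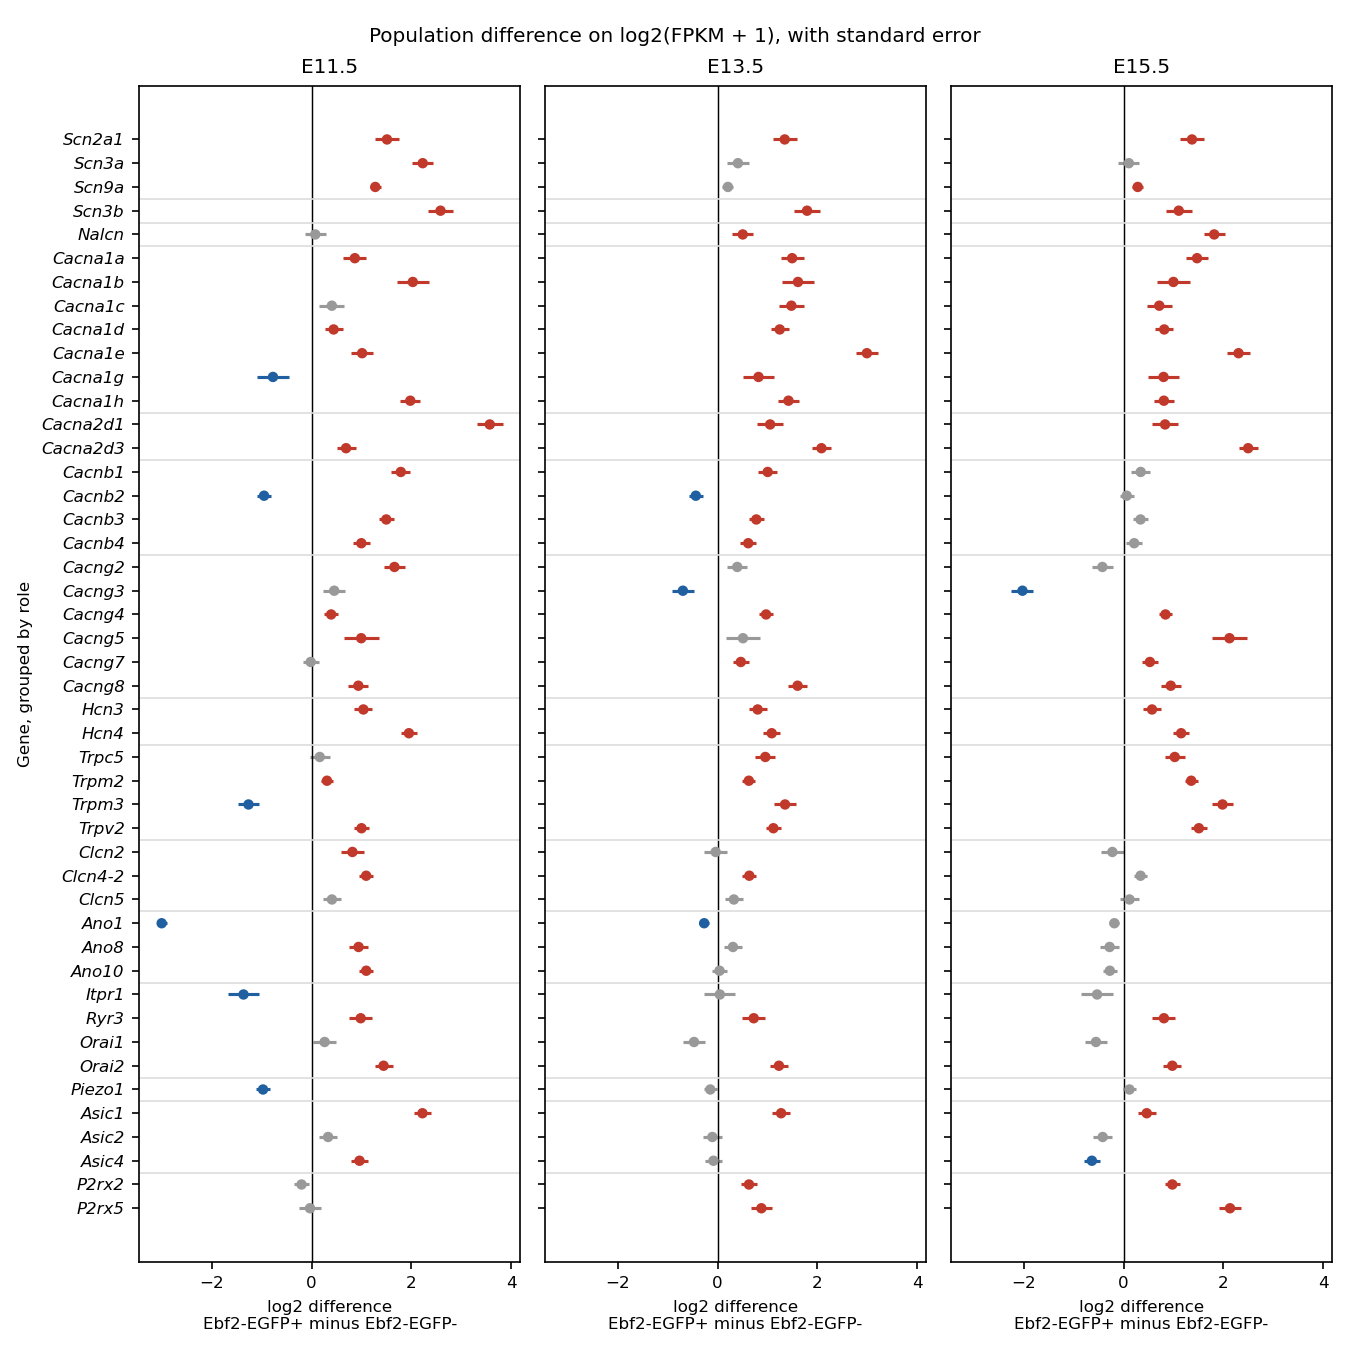
Points give the log2 difference of each channel gene, Ebf2-EGFP+ minus Ebf2-EGFP- cells, with its standard error as bars, at each stage on one common axis. Red points were called higher, blue points lower and grey points were not called. Blue points number 6 in the first panel, 3 in the next and 2 in the last.

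Among the listed pore-forming sodium channel genes, the leading one in Ebf2-EGFP+ cells passed from Scn3a, the subunit typical of embryonic neurons, to Scn2a1, a main subunit of excitatory neurons. Scn3a was at 13.999 and 17.6 FPKM in the Ebf2-EGFP+ libraries of E11.5, 5.74 and 4.63 in those of E13.5 and 7.71 and 8.47 in those of E15.5, and at 2.11 and 3.09, 3.34 and 3.97, and 6.22 and 8.86 in the Ebf2-EGFP- libraries of the same stages. It was thus highest in the Ebf2-EGFP+ cells of E11.5, and by E15.5 the libraries of the populations overlapped. Its difference between the populations was 2.23 ± 0.21 (SE, limma adjusted p = 3.0e-06) at E11.5, and it narrowed by E15.5 with a change of -2.12 ± 0.30 (SE, limma adjusted p = 1.7e-04). Within Ebf2-EGFP+ cells Scn3a fell by 0.88 on the log2 scale (SE 0.21, limma adjusted p = 0.0027), while in Ebf2-EGFP- cells it rose by 1.24 ± 0.21 (SE, limma adjusted p = 1.7e-04). Scn2a1 was at 2.90 and 3.29 FPKM, 3.64 and 3.22 FPKM, and 9.40 and 14.5 FPKM over the stages in Ebf2-EGFP+ cells and 0.398 and 0.471 FPKM, 0.660 and 0.828 FPKM, and 2.86 and 5.24 FPKM in Ebf2-EGFP- cells. It rose in both populations, by 1.64 and 1.77, and was higher in Ebf2-EGFP+ cells by 1.51, 1.35 and 1.37 at the 3 stages.

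Scn9a, a subunit known from sensory neurons, was at 2.19 and 2.31 FPKM in Ebf2-EGFP+ cells of E11.5 and at 0.295 and 0.389 FPKM in Ebf2-EGFP- cells, a difference of 1.28, and was under 1 FPKM in every other group.

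The shares of the summed sodium channel α level followed these genes. In Ebf2-EGFP+ cells Scn3a made up 73.3% to 75.9% of the sum of Scn2a1, Scn3a and Scn9a at E11.5 and 35.7% to 43.4% at E15.5, and Scn2a1 14.2% to 15.2% and 53.0% to 61.1%. In Ebf2-EGFP- cells Scn3a held 75.3% to 78.3% and 61.1% to 65.8%, and Scn2a1 11.9% to 14.2% and 30.2% to 36.1%, at those stages. The sum itself was 19.1 to 23.2, 8.12 to 9.84 and 17.8 to 23.7 FPKM over the stages in Ebf2-EGFP+ cells. The shares are over these 3 genes. Family members absent from the deposited list of differential genes are in none of the sums and shares given here, whatever their level.

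Scn3b, a sodium channel β subunit that anchors and tunes the pore, rose in both populations. It was at 20.4 and 19.1 FPKM, 33.8 and 32.5 FPKM, and 51.7 and 74.9 FPKM over the stages in Ebf2-EGFP+ cells and 2.24 and 2.68 FPKM, 6.67 and 11.6 FPKM, and 22.9 and 35.1 FPKM in Ebf2-EGFP- cells. It was higher in Ebf2-EGFP+ cells by 2.59 ± 0.26 (SE, limma adjusted p = 3.9e-06) at E11.5, and the difference narrowed by E15.5 to 1.11: the rise in Ebf2-EGFP- cells (3.09) exceeded that in Ebf2-EGFP+ cells (1.61) with a change of difference of -1.48 ± 0.37 (SE, limma adjusted p = 0.0049). The sodium leak channel Nalcn was at 1.84 and 2.37 FPKM, 1.33 and 0.993 FPKM, and 3.19 and 5.83 FPKM over the stages in Ebf2-EGFP+ cells and 1.91 and 1.97 FPKM, 0.688 and 0.366 FPKM, and 0.590 and 0.447 FPKM in Ebf2-EGFP- cells. The populations overlapped at E11.5 and stood apart at E15.5 by 1.82 ± 0.21 (SE, limma adjusted p = 3.8e-05), with a rise of 0.79 in Ebf2-EGFP+ cells and a fall in Ebf2-EGFP- cells (log2 change -0.95). The call of Nalcn was lost between stages in Ebf2-EGFP+ cells without Ebf2-EGFP+ E15.5 replicate 2 (log2 value 0.44).

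The pore-forming calcium channel genes were higher in Ebf2-EGFP+ cells as a group from E13.5. All 7 listed genes were called higher at both later stages, where 32.1% and 25.8% of all genes were, and at E11.5 there were 5 higher and 1 lower (Cacna1g), against 36.8% and 44.9%. The call of Cacna1g at E13.5 was lost without any 1 of the 4 libraries of that stage (log2 value 0.77 to 0.88). The count at E15.5 was 5 without Ebf2-EGFP+ E15.5 replicate 1 or 2 or Ebf2-EGFP- E15.5 replicate 1, and in a fit of the compared groups alone. The higher count at E11.5 was 3 without Ebf2-EGFP+ E11.5 replicate 2 or Ebf2-EGFP- E11.5 replicate 1, and the lower one 0 without Ebf2-EGFP+ E11.5 replicate 1 or Ebf2-EGFP- E11.5 replicate 2 and under median-of-ratios scaling. Their summed level in Ebf2-EGFP+ cells was 40.3 to 57.1 FPKM, then 64.8 to 79.2, then 108 to 109.5 over the stages, and in Ebf2-EGFP- cells 15.6 to 22.3, 14.99 to 22.9 and 41.5 to 52.1. The stacked plot of summed levels shows the separation at each stage, with no overlap between the populations.

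**Figure D3:**
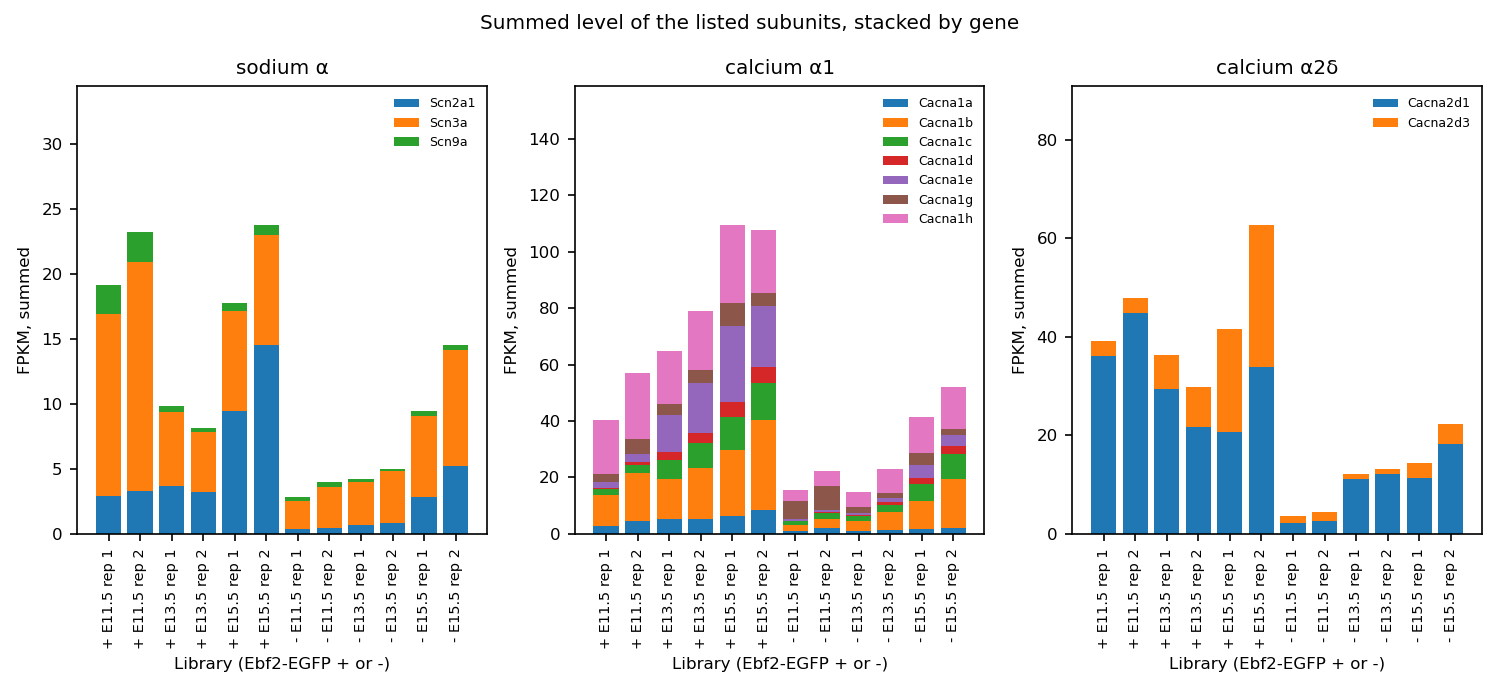
Bars stack the FPKM of each listed gene in each library (+ for Ebf2-EGFP+, - for Ebf2-EGFP-) for the pore-forming sodium channel, pore-forming calcium channel and α2δ genes, from 0 upwards. The calcium channel sum reaches 108 to 109.5 FPKM in the last Ebf2-EGFP+ pair, and the α2δ bars pass from almost all Cacna2d1 to near equal parts in that population.

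Cacna1e, the R-type pore, had the largest difference of the 7, at E13.5. It was at 1.95 and 2.93 FPKM in the Ebf2-EGFP+ libraries of E11.5, 12.9 and 17.7 in those of E13.5 and 26.9 and 21.6 in those of E15.5, and at 0.566 and 0.817, 0.732 and 1.36, and 4.30 and 3.86 in the Ebf2-EGFP- libraries of the same stages. Its lowest Ebf2-EGFP+ library of E13.5 was above every Ebf2-EGFP- library, and the difference was 2.99 ± 0.23 (SE, limma adjusted p = 3.4e-06) at that stage and 2.31 ± 0.23 (SE, limma adjusted p = 1.2e-05) at E15.5. Within Ebf2-EGFP+ cells it rose by 2.88 ± 0.23 (SE, limma adjusted p = 7.6e-07), and its share of the summed pore level was 4.84% to 5.13% at E11.5 and 20.0% to 24.6% at E15.5. Cacna1b, the N-type pore of presynaptic endings, was at 11.1 and 16.8 FPKM, 14.2 and 18.2 FPKM, and 23.2 and 31.7 FPKM over the stages in Ebf2-EGFP+ cells and 1.99 and 3.32 FPKM, 3.26 and 6.32 FPKM, and 9.92 and 17.2 FPKM in Ebf2-EGFP- cells. It was higher in Ebf2-EGFP+ cells by 2.03, 1.61 and 1.000, and with the replicate block the narrowing of its difference passed as well. Cacna1a, the P/Q-type pore, rose in Ebf2-EGFP+ cells by 0.88 to 6.44 and 8.53 FPKM at E15.5, where Ebf2-EGFP- cells had 1.86 and 2.205 FPKM. Calls were lost for Cacna1b at E15.5 without Ebf2-EGFP- E15.5 replicate 1 or Ebf2-EGFP+ E15.5 replicate 2 (log2 value 0.63 to 0.78), and for Cacna1a between stages in Ebf2-EGFP+ cells without Ebf2-EGFP+ E11.5 replicate 1 (log2 value 0.57).

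Of the L-type pores, Cacna1c was higher in Ebf2-EGFP+ cells by 1.48 at E13.5 and 0.72 at E15.5. It rose by 1.97 in Ebf2-EGFP+ and 1.66 in Ebf2-EGFP- cells and reached 11.8 and 13.4 and 5.91 and 8.88 FPKM, and Cacna1d rose by 1.81 and 1.43 and reached 5.24 and 5.45 and 2.25 and 3.004 FPKM. The T-type pores, which open near the resting potential, did not follow one course. Cacna1h was at 19.1 and 23.4 FPKM, 18.8 and 21.2 FPKM, and 27.6 and 22.5 FPKM over the stages in Ebf2-EGFP+ cells and 4.11 and 5.18 FPKM, 5.52 and 8.40 FPKM, and 12.9 and 14.8 FPKM in Ebf2-EGFP- cells. Its difference was 1.98 ± 0.20 (SE, limma adjusted p = 4.5e-06) at E11.5 and 0.81 at E15.5, with the rise of 1.40 in Ebf2-EGFP- cells. Cacna1g held 38.4% to 40.5% of the summed pore level in Ebf2-EGFP- cells of E11.5, at 6.34 and 8.56 FPKM against 2.82 and 5.28 FPKM in Ebf2-EGFP+ cells, and was at 8.31 and 4.63 FPKM in Ebf2-EGFP+ against 4.38 and 2.21 in Ebf2-EGFP- cells at E15.5. It was called lower at E11.5 (-0.77) and higher at E15.5 (0.80), and the first call did not pass under median-of-ratios scaling (log2 difference -0.55) nor the second in a fit of the compared groups alone. Calls were lost for Cacna1c at E15.5 without Ebf2-EGFP- E15.5 replicate 1 or Ebf2-EGFP+ E15.5 replicate 1 or 2 (log2 value 0.46 to 0.80), for Cacna1g at E11.5 without Ebf2-EGFP- E11.5 replicate 2 or Ebf2-EGFP+ E11.5 replicate 1 (log2 value -0.58 to -0.42), and for Cacna1g at E15.5 without any library but Ebf2-EGFP+ E11.5 replicate 1, Ebf2-EGFP+ E11.5 replicate 2, Ebf2-EGFP+ E15.5 replicate 2 and Ebf2-EGFP- E15.5 replicate 1 (log2 value 0.43 to 0.80). An offset of 0.1 FPKM ended the call of Cacna1c at E15.5. A fit of the compared groups alone ended the call of Cacna1c at E15.5.

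The α2δ subunits, which bring calcium channels to the surface and also act at synapses, were both higher in Ebf2-EGFP+ cells at every stage but their differences changed in opposite directions. Cacna2d1 was at 36.1 and 44.8 FPKM in the Ebf2-EGFP+ libraries of E11.5, 29.4 and 21.6 in those of E13.5 and 20.6 and 33.9 in those of E15.5, and at 2.28 and 2.66, 11.1 and 12.2, and 11.4 and 18.2 in the Ebf2-EGFP- libraries of the same stages. At E11.5 its Ebf2-EGFP+ libraries stood far above those of Ebf2-EGFP- cells, with 3.57 ± 0.26 (SE, limma adjusted p = 5.6e-07), the largest population difference of the channel genes at that stage. In Ebf2-EGFP- cells it rose by 2.15 ± 0.26 (SE, limma adjusted p = 1.2e-05) and the difference shrank to 0.83 at E15.5, a change of -2.74 ± 0.37 (SE, limma adjusted p = 1.2e-04). Cacna2d3 was at 3.03 and 3.11 FPKM, 6.93 and 8.15 FPKM, and 21.0 and 28.8 FPKM over the stages in Ebf2-EGFP+ cells and 1.38 and 1.67 FPKM, 0.968 and 1.05 FPKM, and 3.07 and 4.03 FPKM in Ebf2-EGFP- cells. It rose in Ebf2-EGFP+ cells by 2.65 ± 0.19 (SE, limma adjusted p = 4.0e-07) and its difference grew from 0.69 to 2.50 ± 0.19 (SE, limma adjusted p = 2.4e-06). Cacna2d3 made up 6.49% to 7.73% of the sum of both in the Ebf2-EGFP+ fraction of E11.5 and 46.0% to 50.4% of E15.5, and 37.6% to 38.6% and 18.1% to 21.3% in Ebf2-EGFP- cells. The call of Cacna2d1 was lost at E15.5 without Ebf2-EGFP- E15.5 replicate 1 or Ebf2-EGFP+ E15.5 replicate 2 (log2 value 0.49 to 0.51). A fit of the compared groups alone ended the call of Cacna2d1 at E15.5.

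**Figure D4:**
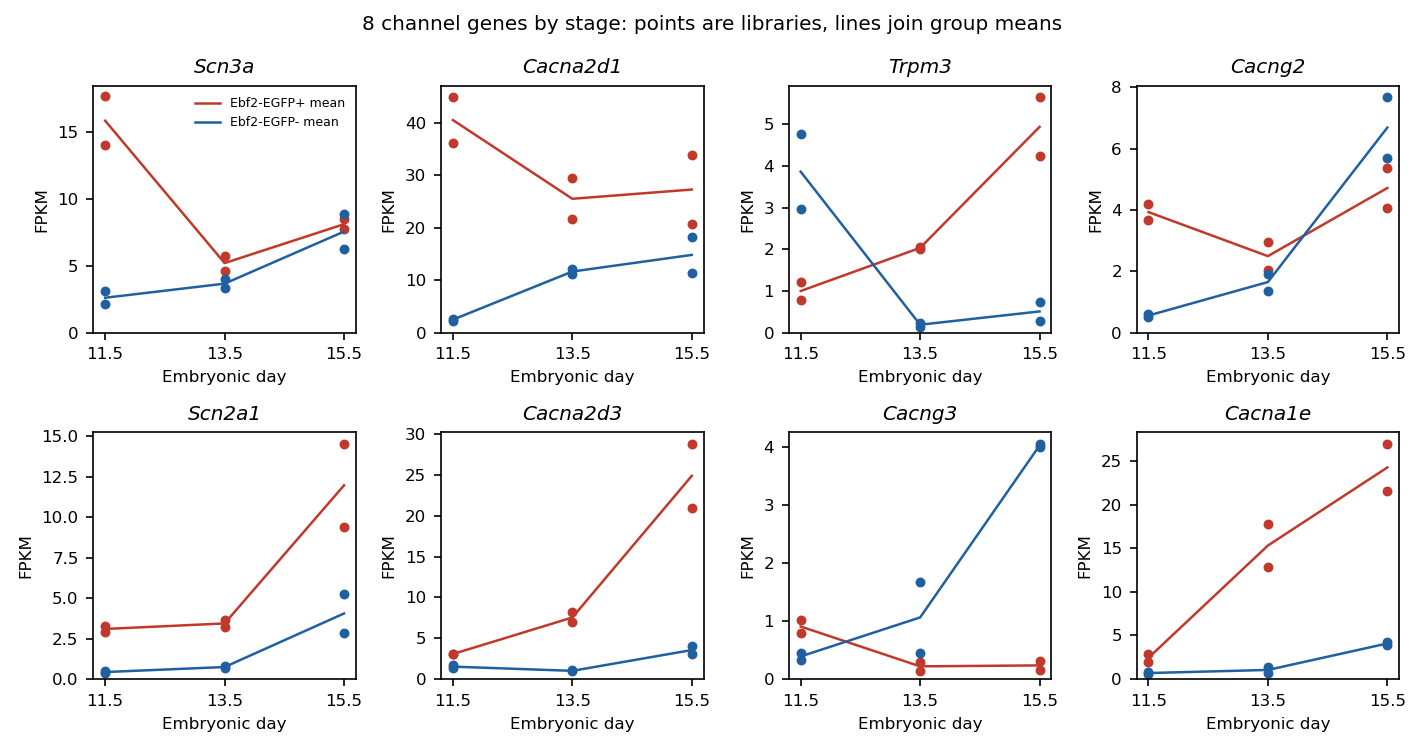
FPKM on linear axes from 0 against embryonic day for 8 channel genes, with a point for each library and lines through the means of 2 libraries, red for Ebf2-EGFP+ and blue for Ebf2-EGFP- cells. Trpm3 starts higher in Ebf2-EGFP- cells (2.96 and 4.76 FPKM) and ends higher in Ebf2-EGFP+ cells (4.23 and 5.64 FPKM), and Cacna2d1 and Cacna2d3 draw together in Ebf2-EGFP+ cells.

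The cytoplasmic calcium channel β subunits were led by Cacnb3 in both populations, at 68.1% to 77.3% of their sum in every library. Cacnb3 was at 74.8 and 72.2 FPKM, 74.9 and 74.5 FPKM, and 111 and 92.4 FPKM over the stages in Ebf2-EGFP+ cells and 23.2 and 27.8 FPKM, 39.1 and 47.7 FPKM, and 76.2 and 83.5 FPKM in Ebf2-EGFP- cells. It was higher in Ebf2-EGFP+ cells by 1.497 ± 0.15 (SE, limma adjusted p = 4.7e-06) at E11.5, and rose more in Ebf2-EGFP- than in Ebf2-EGFP+ cells, so that the difference narrowed with a change of -1.16 ± 0.22 (SE, limma adjusted p = 9.7e-04). Cacnb1 and Cacnb4 rose in Ebf2-EGFP- cells, by 1.34 and 1.11, and were not called between stages in Ebf2-EGFP+ cells. Their population differences were 1.79 and 0.998 at E11.5 and were not called here at E15.5 (28.6 and 25.3 against 21.1 and 20.9 FPKM and 3.54 and 4.31 against 2.79 and 3.74 FPKM). That of Cacnb1 at E15.5 was called with the replicate block and under median-of-ratios scaling. Cacnb2 was low and on the other side, at 0.453 and 0.679 FPKM, 0.620 and 0.361 FPKM, and 0.521 and 0.289 FPKM over the stages in Ebf2-EGFP+ cells and 1.90 and 2.16 FPKM, 1.16 and 0.868 FPKM, and 0.349 and 0.331 FPKM in Ebf2-EGFP- cells. At E11.5 it had a difference of -0.95 ± 0.14 (SE, limma adjusted p = 6.5e-05), at E13.5 one of -0.44 ± 0.14 (SE, limma adjusted p = 0.014), and it fell in Ebf2-EGFP- cells (log2 change -1.17). The call of Cacnb2 was lost at E13.5 without Ebf2-EGFP- E13.5 replicate 1 or Ebf2-EGFP+ E13.5 replicate 2 (log2 value -0.33 to -0.31).

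The γ family, of which Cacng2, Cacng3, Cacng4, Cacng5, Cacng7 and Cacng8 are AMPA receptor auxiliary subunits (TARPs), was led by Cacng4 and Cacng7 in both populations. Cacng7 was at 42.5 and 52.0 FPKM, 82.7 and 74.0 FPKM, and 113 and 91.7 FPKM over the stages in Ebf2-EGFP+ cells and 44.6 and 50.9 FPKM, 61.0 and 52.1 FPKM, and 70.2 and 70.3 FPKM in Ebf2-EGFP- cells. It rose in both populations, by 1.10 and 0.55, and was higher in Ebf2-EGFP+ cells at E13.5 and E15.5 by 0.47 and 0.53. At E15.5 Cacng4 was at 134 and 109 FPKM in Ebf2-EGFP+ against 66.3 and 68.2 in Ebf2-EGFP- cells, and Cacng8 rose in both, by 1.201 and 1.19. Cacng5 was at 1.79 and 1.76 FPKM, 0.561 and 0.813 FPKM, and 4.33 and 14.5 FPKM over the stages in Ebf2-EGFP+ cells and 0.504 and 0.289 FPKM, 0.120 and 0.246 FPKM, and 0.963 and 1.22 FPKM in Ebf2-EGFP- cells. It was uneven in the last Ebf2-EGFP+ pair, and its difference at E15.5, 2.12 ± 0.35 (SE, limma adjusted p = 3.9e-04), was 2.90 without replicate 1 and 1.35 without replicate 2 of that group. Calls were lost for Cacng7 between stages in Ebf2-EGFP- cells without Ebf2-EGFP- E11.5 replicate 1 (log2 value 0.46), for Cacng7 at E13.5 without Ebf2-EGFP- E13.5 replicate 2 or Ebf2-EGFP+ E13.5 replicate 1 (log2 value 0.35 to 0.39), and for Cacng7 at E15.5 without Ebf2-EGFP- E15.5 replicate 1 or Ebf2-EGFP+ E15.5 replicate 1 (log2 value 0.38 to 0.53).

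Cacng2 (stargazin) and Cacng3 were raised in Ebf2-EGFP- cells by E15.5. Cacng2 was at 4.18 and 3.68 FPKM in the Ebf2-EGFP+ libraries of E11.5, 2.96 and 2.02 in those of E13.5 and 5.38 and 4.05 in those of E15.5, and at 0.518 and 0.595, 1.37 and 1.93, and 7.68 and 5.69 in the Ebf2-EGFP- libraries of the same stages. It rose in Ebf2-EGFP- cells by 2.29 ± 0.21 (SE, limma adjusted p = 1.3e-06), and a difference of 1.66 ± 0.21 (SE, limma adjusted p = 1.7e-05) at E11.5 changed by -2.09 ± 0.29 (SE, limma adjusted p = 1.5e-04) until E15.5. The Ebf2-EGFP- pair of Cacng2 was then the higher one. That difference was not called here but was called under some alternatives, the replicate block among them. Cacng3 was at 1.02 and 0.789 FPKM in the Ebf2-EGFP+ libraries of E11.5, 0.147 and 0.292 in those of E13.5 and 0.320 and 0.152 in those of E15.5, and at 0.336 and 0.445, 0.456 and 1.67, and 4.06 and 3.999 in the Ebf2-EGFP- libraries of the same stages. At E15.5 the Ebf2-EGFP- libraries were higher, with -2.03 ± 0.22 (SE, limma adjusted p = 2.3e-05), the largest difference of a channel gene on the lower side at that stage. It rose in Ebf2-EGFP- cells by 1.86 ± 0.22 (SE, limma adjusted p = 1.0e-05). Asic4, a subunit of the proton-gated family, was the other gene called lower at E15.5.

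Of the AMPA receptor and its other partners, the 7 genes in the table of 8 listed (Gria1, Gria2, Gria3, Cnih2, Cnih3, Shisa9 and Gsg1l) rose in both populations, where 24.6% of all genes did. Of 36 listed channel partners in the table, 27 were called higher and 4 lower at the first stage (all genes 36.8% and 44.9%), 25 and 3 at the next (32.1% and 43.5%), and 21 and 2 at the last (25.8% and 31.6%). Ank3, the ankyrin that holds sodium channels at the axon initial segment, was higher at E11.5 by 2.99 and at E15.5 by 0.87. All 6 plasma membrane calcium extrusion genes in the table (Atp2b2, Atp2b3, Atp2b4, Slc8a1, Slc8a2 and Slc8a3) were higher at E11.5 and E13.5, and 3 of them at E15.5, beside the same shares of all genes. Slc12a2, the chloride importer, was lower at every stage, by log2 differences of -1.39, -0.85 and -0.61.

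Both hyperpolarization-activated cation channels were higher in Ebf2-EGFP+ cells at all 3 stages. Hcn3 was at 5.67 and 7.26 FPKM, 7.48 and 8.73 FPKM, and 17.6 and 14.95 FPKM over the stages in Ebf2-EGFP+ cells and 2.46 and 2.77 FPKM, 3.85 and 4.58 FPKM, and 9.77 and 11.46 FPKM in Ebf2-EGFP- cells. It was higher by 1.04 ± 0.18 (SE, limma adjusted p = 2.0e-04) at E11.5 and 0.57 at E15.5, and rose in both populations. Hcn4, which paces spontaneous activity, stood in Ebf2-EGFP+ cells at 12.6 and 12.97 FPKM, then 5.89 and 5.61, then 12.1 and 15.02, lowest at E13.5, against 2.52 and 2.61, 2.10 and 2.26 and 4.92 and 6.17 FPKM in Ebf2-EGFP- cells. The call of Hcn3 was lost at E15.5 without Ebf2-EGFP- E15.5 replicate 1 or Ebf2-EGFP+ E15.5 replicate 1 (log2 value 0.46 to 0.47). A fit of the compared groups alone ended the call of Hcn3 at E15.5.

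The TRP channels described are Trpc5, Trpm2, Trpm3 and Trpv2, and each was higher in Ebf2-EGFP+ cells from E13.5. At E11.5 2 of the 4 were called higher (Trpm2, Trpv2) and 1 lower (Trpm3), where 36.8% and 44.9% of all genes were, and all 4 were higher at both later stages, against 32.1% and 25.8%. Without any 1 of the 4 libraries of E11.5, without the trend or under median-of-ratios scaling, Trpm2 was not called at E11.5 and the higher count there was 1. The summed level of the 4 was 2.80 to 2.87 FPKM, then 5.36 to 5.72, then 11.54 to 13.8 over the stages in Ebf2-EGFP+ cells, and 3.21 to 5.10, 0.519 to 0.625 and 1.30 to 2.08 in Ebf2-EGFP- cells. Of 6 listed microglia or macrophage markers the table holds 1 (Aif1), which was called higher between stages in both populations, at 0.272 to 0.359, 0.673 to 0.933 and 2.87 to 2.92 FPKM in Ebf2-EGFP+ and 0.131 to 0.162, 0.111 to 0.188 and 0.626 to 0.773 FPKM in Ebf2-EGFP- cells. It was called higher in Ebf2-EGFP+ cells at both later stages, and its part in the levels of Trpm2, Trpv2 and P2rx5, which rose in the same libraries, was not tested. Cacna1g and Trpm3 were the channel genes called lower at E11.5 and higher at E15.5, a pattern of 3.13% of all genes. The count was 1 under median-of-ratios scaling, in a fit of the compared groups alone, and without any library but Ebf2-EGFP+ E11.5 replicate 2, Ebf2-EGFP+ E15.5 replicate 2 and Ebf2-EGFP- E15.5 replicate 1.

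Trpm3, a channel opened by heat and by the steroid pregnenolone sulphate, was at 0.785 and 1.21 FPKM in the Ebf2-EGFP+ libraries of E11.5, 2.02 and 2.05 in those of E13.5 and 4.23 and 5.64 in those of E15.5, and at 2.96 and 4.76, 0.241 and 0.137, and 0.274 and 0.741 in the Ebf2-EGFP- libraries of the same stages. The Ebf2-EGFP- libraries were higher at E11.5 and the Ebf2-EGFP+ libraries at both later stages, without overlap. Its difference was -1.27 ± 0.22 (SE, limma adjusted p = 1.9e-04) at E11.5, 1.35 ± 0.22 (SE, limma adjusted p = 1.8e-04) at E13.5 and 1.98 ± 0.22 (SE, limma adjusted p = 2.3e-05) at E15.5, and its change between the first and the last stage was 3.25 ± 0.31 (SE, limma adjusted p = 1.2e-05), the largest of the channel genes. It rose in Ebf2-EGFP+ cells (1.57) and fell in Ebf2-EGFP- cells (-1.68). Trpv2 was at 4.21 and 4.82 FPKM against 0.743 and 1.15 FPKM at E15.5. Trpm2, a channel gated by ADP-ribose, and Trpc5 were at 1.66 and 2.48 and at 1.44 and 0.864 FPKM in Ebf2-EGFP+ cells of E15.5, and under 0.3 FPKM in all Ebf2-EGFP- libraries.

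The chloride channel and exchanger genes had their largest population differences at E11.5. Clcn4-2, an endosomal exchanger of chloride for protons, was at 31.2 and 29.1 FPKM, 49.97 and 47.7 FPKM, and 60.8 and 62.6 FPKM over the stages in Ebf2-EGFP+ cells and 13.49 and 13.7 FPKM, 28.2 and 34.1 FPKM, and 45.2 and 52.0 FPKM in Ebf2-EGFP- cells. It was higher in Ebf2-EGFP+ cells by 1.09 ± 0.14 (SE, limma adjusted p = 2.1e-05) at E11.5 and rose in both populations (1.01 and 1.76). Its difference at E15.5 was not called here but was called under some alternatives, the replicate block and median-of-ratios scaling among them. Clcn2, a plasma membrane channel, was at 5.28 and 7.62 FPKM, 3.29 and 2.49 FPKM, and 2.66 and 2.67 FPKM over the stages in Ebf2-EGFP+ cells and 2.31 and 4.26 FPKM, 2.87 and 3.08 FPKM, and 3.27 and 3.31 FPKM in Ebf2-EGFP- cells. It fell in Ebf2-EGFP+ cells by a log2 change of -1.004 ± 0.23 (SE, limma adjusted p = 0.0019) and was higher there by 0.82 at E11.5. Clcn5, another endosomal exchanger, was at 10.6 and 10.8 FPKM, 6.37 and 4.91 FPKM, and 2.56 and 3.04 FPKM over the stages in Ebf2-EGFP+ cells and 8.87 and 6.89 FPKM, 4.63 and 3.92 FPKM, and 2.54 and 2.45 FPKM in Ebf2-EGFP- cells. It fell in both populations, by log2 changes of -1.62 and -1.34. Its population differences were not called here, and that at E11.5 was called with the replicate block. The call of Clcn2 was lost at E11.5 without Ebf2-EGFP- E11.5 replicate 1 or Ebf2-EGFP+ E11.5 replicate 2 (log2 value 0.48 to 0.59).

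Ano1, the calcium-activated chloride channel, was at 0.250 and 0.231 FPKM in the Ebf2-EGFP+ libraries of E11.5, 0.0111 and 0.0161 in those of E13.5 and 0 and 0.0154 in those of E15.5, and at 9.34 and 8.62, 0.190 and 0.253, and 0.141 and 0.150 in the Ebf2-EGFP- libraries of the same stages. Its level in Ebf2-EGFP- cells of E11.5 stood apart from every other group, with a population difference of -3.01 ± 0.10 (SE, limma adjusted p = 6.1e-09), the largest on the lower side of the channel genes. It fell in Ebf2-EGFP- cells by a log2 change of -3.12 ± 0.10 (SE, limma adjusted p = 1.6e-09). Ano8, which links the endoplasmic reticulum to the plasma membrane, was at 28.0 and 34.2 FPKM, 32.6 and 32.8 FPKM, and 34.9 and 27.2 FPKM over the stages in Ebf2-EGFP+ cells and 12.9 and 18.9 FPKM, 25.1 and 27.4 FPKM, and 37.8 and 37.4 FPKM in Ebf2-EGFP- cells. It was higher in Ebf2-EGFP+ cells by 0.94 ± 0.19 (SE, limma adjusted p = 5.8e-04) at E11.5 and rose in Ebf2-EGFP- cells by 1.21. Ano10 was at 20.7 and 22.2 FPKM, 10.7 and 10.9 FPKM, and 11.1 and 9.36 FPKM over the stages in Ebf2-EGFP+ cells and 9.85 and 9.12 FPKM, 10.4 and 10.6 FPKM, and 11.9 and 13.2 FPKM in Ebf2-EGFP- cells. It fell in Ebf2-EGFP+ cells, with a log2 change of -1.002 ± 0.14 (SE, limma adjusted p = 6.3e-05), and the difference of 1.10 at E11.5 changed by -1.37 ± 0.20 (SE, limma adjusted p = 2.2e-04) until E15.5.

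Of the calcium release and store-operated channels, Itpr1, Ryr3 and Orai2 rose in both populations. Itpr1, the IP3 receptor, was at 0.831 and 1.06 FPKM in the Ebf2-EGFP+ libraries of E11.5, 3.09 and 4.33 in those of E13.5 and 5.71 and 9.47 in those of E15.5, and at 3.74 and 4.27, 3.19 and 3.88, and 7.39 and 16.5 in the Ebf2-EGFP- libraries of the same stages. It was lower in Ebf2-EGFP+ cells at E11.5, with a difference of -1.37 ± 0.31 (SE, limma adjusted p = 0.0016) and rose in both populations, by 2.11 and 1.28. Orai2, a pore of store-operated entry, was at 11.4 and 10.9 FPKM, 14.2 and 15.504 FPKM, and 31.4 and 37.5 FPKM over the stages in Ebf2-EGFP+ cells and 3.81 and 3.15 FPKM, 4.83 and 6.81 FPKM, and 15.4 and 18.6 FPKM in Ebf2-EGFP- cells. Its level was the higher one in the Ebf2-EGFP+ fraction throughout (1.44, 1.23 and 0.98) and rose in both. Its relative Orai1 was at 2.999 and 2.06 FPKM in Ebf2-EGFP+ and 4.58 and 3.73 FPKM in Ebf2-EGFP- cells of E15.5. The population differences of Orai1 at E13.5 and E15.5 were not called here but were called with the replicate block. Ryr3, a ryanodine receptor, rose by 1.57 and 1.75 and was at 4.999 and 6.88 FPKM against 2.17 and 3.86 FPKM at E15.5.

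Asic1, a proton-gated cation channel, was at 21.6 and 25.0 FPKM in the Ebf2-EGFP+ libraries of E11.5, 34.5 and 39.2 in those of E13.5 and 33.9 and 27.6 in those of E15.5, and at 4.25 and 4.14, 12.3 and 17.4, and 22.6 and 21.2 in the Ebf2-EGFP- libraries of the same stages. Ebf2-EGFP+ cells exceeded Ebf2-EGFP- cells by 2.22 ± 0.18 (SE, limma adjusted p = 1.0e-06) at E11.5. Asic1 rose in Ebf2-EGFP- cells by 2.14 ± 0.18 (SE, limma adjusted p = 8.1e-07), and had a difference of 0.46 left at E15.5. Asic4 was at 3.63 and 2.07 FPKM in Ebf2-EGFP+ cells of E11.5 and at 0.0797 and 0.0721, then 0.0398 and 0.110 FPKM in those of the later stages, against 1.10 and 0.788, 0.139 and 0.140, and 0.619 and 0.720 FPKM in Ebf2-EGFP- cells. It fell in Ebf2-EGFP+ cells by a log2 change of -1.81 ± 0.17 (SE, limma adjusted p = 2.1e-06), and it was the single channel gene called higher at E11.5 (0.96) and lower at E15.5 (-0.64), a pattern of 3.68% of all genes. With the replicate block 3 genes had this pattern, and 2 without Ebf2-EGFP+ E11.5 replicate 1, Ebf2-EGFP- E13.5 replicate 1 or 2, or Ebf2-EGFP- E15.5 replicate 2. Asic2 rose in both populations, by 0.85 and 1.60, to 4.04 and 3.81 FPKM and 5.77 and 5.39 FPKM, and did not pass between them at any stage. The call of Asic1 was lost at E15.5 without any library but Ebf2-EGFP+ E15.5 replicate 2, Ebf2-EGFP- E13.5 replicate 1 and Ebf2-EGFP- E13.5 replicate 2 (log2 value 0.32 to 0.51). A fit of the compared groups alone ended the call of Asic1 at E15.5.

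P2rx5, an ATP-gated channel, was at 0.0176 and 0.0503 FPKM in the Ebf2-EGFP+ libraries of E11.5, 0.864 and 0.913 in those of E13.5 and 2.68 and 5.86 in those of E15.5, and at 0.0429 and 0.0710, 0.0545 and 0, and 0.215 and 0.0756 in the Ebf2-EGFP- libraries of the same stages. It rose in Ebf2-EGFP+ cells by 2.28 ± 0.21 (SE, limma adjusted p = 2.5e-06) and was higher by 2.14 ± 0.21 (SE, limma adjusted p = 1.2e-05) at E15.5. P2rx2 rose in Ebf2-EGFP+ cells by 1.60, from 0.177 and 0.0610 to 2.22 and 2.55 FPKM. Piezo1, the mechanically gated channel, was at 0.403 and 0.789 FPKM, 0.378 and 0.349 FPKM, and 0.582 and 0.854 FPKM over the stages in Ebf2-EGFP+ cells and 2.12 and 2.10 FPKM, 0.489 and 0.529 FPKM, and 0.548 and 0.609 FPKM in Ebf2-EGFP- cells. Its Ebf2-EGFP- libraries of E11.5 stood above all others, with a difference of -0.97 ± 0.13 (SE, limma adjusted p = 3.9e-05).

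In Ebf2-EGFP- cells of E11.5, Ano1, Piezo1, Cacnb2, Trpm3, Itpr1 and Cacna1g were above their level in Ebf2-EGFP+ cells. Radial glia markers (8 genes) there summed to 1341 to 1624 FPKM against 406 to 430 in Ebf2-EGFP+ cells, and cell cycle markers (5) to 727 to 831 against 198 to 222 FPKM. Markers of meninges or fibroblasts (6 genes) summed to 110.0 to 129 FPKM against 41.9 to 47.2 in Ebf2-EGFP+ cells and at most 5.57 in any group of E13.5 or E15.5. Erythroid markers (4 of 5 in the table) summed to 1306 to 2752 against 32.9 to 97.1 FPKM, ganglionic eminence or interneuron markers (7) to 156 to 206 against 9.61 to 12.7 FPKM, and endothelial markers (3 of 6) to 4.39 to 7.19 against 0.322 to 0.536 FPKM. Their part in these results was not tested. Hbb-y, Hba-x and Hbb-bh1 were listed at 0 in Ebf2-EGFP+ cells of E15.5.

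Between E11.5 and E15.5 more channel genes rose than fell in both populations. In Ebf2-EGFP+ cells 26 rose and 8 fell, where 33.3% and 42.1% of all genes did, and in Ebf2-EGFP- cells 31 rose and 7 fell, against 37.7% and 47.6%. The median change was 0.85 and 0.99 (all genes -0.18 and -0.32). Both populations had a rise for 19 genes (24.6% of all genes) and a fall for 2, Ano1 and Clcn5 (32.7%). Without Ebf2-EGFP+ E11.5 replicate 1 or 2, or Ebf2-EGFP+ E15.5 replicate 1, 1 gene fell in both. Nalcn and Trpm3 rose in Ebf2-EGFP+ and fell in Ebf2-EGFP- cells (2.88%), and Scn3a, Cacng3 and Ano10 did the opposite (3.93%). Without Ebf2-EGFP+ E15.5 replicate 2 the first pattern held for Cacna1g and Trpm3, and with a library left out the counts were 2 to 3 and 2 to 4.

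**Figure D5:**
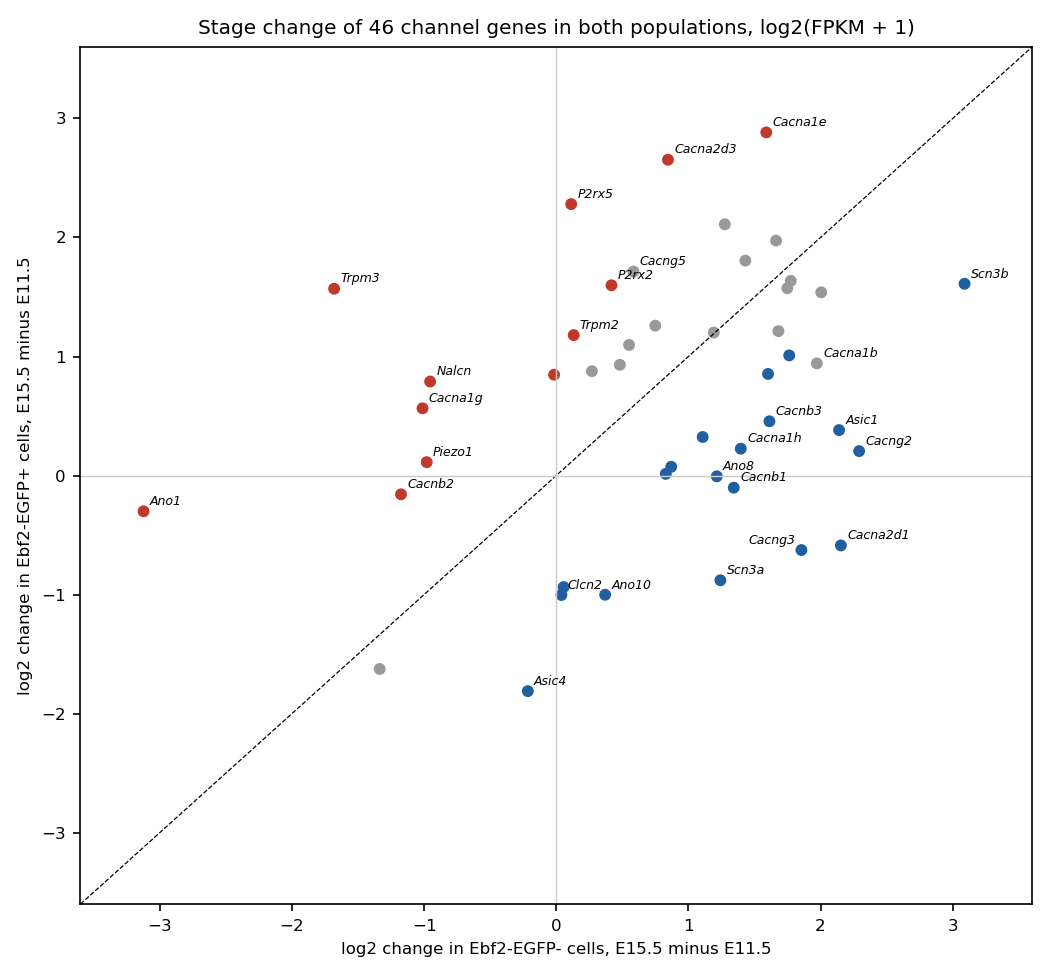
Each point is a channel gene, with its log2 change from E11.5 to E15.5 in Ebf2-EGFP- cells on the x axis and in Ebf2-EGFP+ cells on the y axis, and the dashed line marks equal change. Red and blue points had a population difference that changed towards Ebf2-EGFP+ (12 genes) or Ebf2-EGFP- cells (19 genes) by limma, grey points did not pass, and names are given where the changes differ by over 1.

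The population difference itself changed between E11.5 and E15.5 for 31 of the 46 genes, towards Ebf2-EGFP+ cells for 12 and towards Ebf2-EGFP- cells for 19, where 32% and 27.7% of all genes did. Among genes with a mean of at least 1 FPKM the first count was 6. With the replicate block 8 further genes passed: Cacna1a, Cacng4, Cacng5, Cacng7, Itpr1 and Trpv2 towards Ebf2-EGFP+ and Cacna1b and Orai2 towards Ebf2-EGFP- cells. Pan-neuronal markers (Tubb3, Dcx, Map2, Stmn2, Snap25, Rbfox3) moved with the larger group. They summed to 2931 to 3375 FPKM in Ebf2-EGFP+ and 606 to 661 FPKM in the Ebf2-EGFP- fraction of E11.5, and to 2981 to 3254 and 1925 to 2467 FPKM at E15.5, and all 6 had a difference that changed towards Ebf2-EGFP- cells, with a median of -1.81. Their part in the narrowing of channel gene differences was not tested.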

How the data were processed

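Messenger RNA of 12 libraries (6 groups of 2, from a pair of sorted populations over 3 embryonic stages) was selected with oligo-dT beads. The authors aligned the paired-end reads to mm10 with TopHat 2.0.8b and computed FPKM with Cufflinks 2.2.0, and deposited FPKM for each library in a table of coding genes that they reported as differential, together with their group means in FPKM, fold changes as a linear ratio and p-values for each stage. Those folds and p-values were not used here. The methods and results of the study name different test programs for them. The lncRNA table was not used here.

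Deposited FPKM were transformed to log2(FPKM + 1), and limma 3.58.1 (R 4.3.3) fitted the 6 groups together without covariates, with moderation by a trend on mean expression, and two-sided p-values adjusted by the Benjamini-Hochberg method over all 4859 genes. A call needed an adjusted p under 0.05. The authors had selected these genes for differences between the populations in the same libraries. Adjusted p-values of population differences therefore hold within that list and are no independent test. Contrasts were the populations at each stage, the stages E15.5 and E11.5 within each population, and the change of the population difference between those stages. Simulated libraries with known changes were used to check the code. Genes with full values were, by rule, at each stage the 4 called in each direction with the largest difference and no overlap between the libraries of the populations, the 4 called in each direction with the largest change in Ebf2-EGFP+ cells or change of the difference, and the gene of each role with the highest mean FPKM, and every channel gene is named. Scn2a1 and Hcn4 were given in full after their values were seen. Genes, lists and tests were chosen with earlier results of these data known. Some genes that match the rule are not reported here. Alternatives were an offset of 0.1 FPKM, median-of-ratios scaling, genes with a mean of at least 1 FPKM, no trend, the compared groups alone, the replicate number as a block within stages, and each library left out. Pairing comes from the labels, whose replicate numbers recur in the Ebf2-EGFP+ and Ebf2-EGFP- libraries of each stage. Over genes, libraries with the same number departed together from their group means (r = 0.431, 0.534 and 0.431 for the 3 stages). The number was therefore treated as a pair in the replicate block alternative only. Calls, SEs and adjusted p-values printed here come from the fit without that block, except where the block is named. The study's methods call the libraries biological replicates of pooled embryos, and p-values measure the spread between these libraries. Depth is unknown, since FPKM carry no counts, and no counting interval is given. FPKM summed to 111136 to 146703 per library over the listed genes.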

Additional observations from a re-analysis of the deposited data

Results flagged for a closer look

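The population difference of 31 channel genes changed between E11.5 and E15.5 by the test of that change (limma, adjusted p under 0.05 over all genes), which is why they are listed here. The values are the log2 difference, Ebf2-EGFP+ minus Ebf2-EGFP- cells, at E15.5 minus that at E11.5. The change was towards Ebf2-EGFP+ cells for Trpm3 3.25, Ano1 2.82, P2rx5 2.17, Cacna2d3 1.81, Nalcn 1.74, Cacna1g 1.58, Cacna1e 1.29, P2rx2 1.18, Piezo1 1.09, Trpm2 1.05, Cacnb2 1.02 and Trpc5 0.86. It was towards Ebf2-EGFP- cells for Cacna2d1 -2.74, Cacng3 -2.48, Scn3a -2.12, Cacng2 -2.09, Asic1 -1.76, Asic4 -1.60, Scn3b -1.48, Cacnb1 -1.45, Ano10 -1.37, Ano8 -1.22, Cacna1h -1.17, Cacnb3 -1.16, Clcn2 -1.04, Scn9a -0.99, Orai1 -0.81, Hcn4 -0.80, Cacnb4 -0.78, Clcn4-2 -0.75 and Asic2 -0.75. Ano1 fell in both populations, by log2 changes of -0.30 in Ebf2-EGFP+ and -3.12 in Ebf2-EGFP- cells. Its Ebf2-EGFP+ libraries lay below the Ebf2-EGFP- libraries at every stage. At E15.5 they were at 0 and 0.0154 against 0.141 and 0.150 FPKM, far under the 1 FPKM added. With an offset of 0.1 FPKM the changes of Cacna1e, Orai1 and Asic2 did not pass, and that of Orai1 also not in a fit of the compared groups alone. Of all listed genes, 32% and 27.7% changed in these directions.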

How the results depend on the processing

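Of 202 called values of channel genes none turned its direction under any alternative named in the processing. The change of the Trpv2 difference, not called here but called with the replicate block, was 0.51 and turned to -0.31 with an offset of 0.1 FPKM. Calls were lost for 9 values in a fit of the compared groups alone, 4 with an offset of 0.1 FPKM, 4 without the trend, 2 under median-of-ratios scaling (Cacna1g at E11.5, log2 difference -0.55, and Trpm2 at E11.5, 0.32), 2 of 169 among genes with a mean of at least 1 FPKM and none of 130 with the replicate block, which was fitted for differences between populations only, since the stages hold different embryos. Leaving out each library in turn lost 118 of 2424 calls. Counts of channel genes called lower at E15.5 (2) became 1 among genes with a mean of at least 1 FPKM and 5 with the replicate block. Lower at E13.5 (3) became 1 among genes of at least 1 FPKM, and 1 to 4 when a library was left out. With the replicate block Orai1 joined the genes lower at E13.5. The differences that changed towards Ebf2-EGFP+ cells (12) became 6 among genes of at least 1 FPKM. Patterns over stages were counted after seeing the data: lower at all 3 stages (0) became 1 with an offset of 0.1 FPKM, and higher at E11.5 but lower at E15.5 (1) became 0 among genes of at least 1 FPKM, 2 with the compared groups alone, 3 with the replicate block and 1 to 2 with a library left out. Lower at E11.5 but higher at E15.5 (2) was 1 under median-of-ratios scaling and with the compared groups alone, and 1 to 2 with a library left out. A fall in both populations (2) was 1 to 2 with a library left out, and higher at all 3 stages (18) was 13 to 19. Causes of these shifts were not tested, beyond the filter testing fewer genes. Median-of-ratios scaling moved the median of all genes by 0.19, 0.19 and 0.13 at the 3 stages, 0.14 and 0.22 between stages in Ebf2-EGFP+ and Ebf2-EGFP- cells, and -0.07 for the change of the difference. Low FPKM limit what can be read for the genes under 1 FPKM.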
